A study of Homo sapiens with 6 samples.

Results

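The genes of the ATR checkpoint complex were ATRIP, ATR, RPA1, RPA2, RPA3, TOPBP1, CHEK1, RAD17, RAD9A and HUS1. They were taken by gene name, 10 of the 11844 genes in the gene table, with the 35 transcripts listed under those names among 29964. The set was chosen by values of the same comparison that is described here: ATRIP stood out by its higher FPKM with LINC00888, and the other 9 encode proteins that act with it. The differences between the groups are therefore given for all 10 as a description. No p-value is given for them, and where their calls in the fit over all genes are counted, the counts are no evidence about the set.

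RNA came from stable sublines of C4-2B, a human prostate cancer cell line derived from LNCaP. The sublines carried pcDNA 3.1 with LINC00888, a long noncoding RNA, expressed constitutively (3 libraries), or the same vector empty (3 libraries), and were grown in RPMI1640 with serum and no further treatment. By the labels, quantitative PCR on the sequenced RNA put LINC00888 at 15.27 ± 2.4 times its control level (SD, number of measurements not stated). The labels do not say whether a subline is 1 clone or a pool, which promoter drives the insert, or whether the 3 libraries of each kind are cultures of their own, so errors measure the spread between these libraries only. The libraries were strand-specific and polyA-selected. Expression is given as FPKM, fragments scaled to the length of the gene model and to the mapped fragments of the library. Levels of different genes can be set side by side in this unit, but they depend on the gene model. The tables hold no counts and depth is unknown. All 9 luminal prostate markers looked for were listed, with a summed FPKM of 1320 to 1339 with LINC00888 and 1287 to 1303 with the empty vector. Of the leukocyte, endothelial and fibroblast markers, CD68 was listed at 0.709 to 0.732 FPKM with LINC00888 and 0.574 to 0.966 FPKM with the empty vector, VWF at 0.499 to 0.537 and 0.523 to 0.559 FPKM, and COL1A1 at 2.53 to 3.07 FPKM with LINC00888 and 2.97 to 3.19 FPKM with the empty vector. PTPRC, CD3E, CD14, PECAM1, CDH5, COL1A2, DCN and LUM were not listed. These are whole-culture values, in which fewer cells with a transcript and less of it per cell cannot be told apart.

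ATR is a kinase that is activated when replication forks stall and single-stranded DNA is exposed. The trimer of RPA1, RPA2 and RPA3 coats that DNA, and ATRIP binds the coated DNA and brings ATR with it. RAD17, with small RFC subunits, loads the ring-shaped clamp of RAD9A, HUS1 and RAD1 beside the site, the clamp holds TOPBP1, and TOPBP1 switches ATR on. Active ATR phosphorylates the kinase CHEK1, which holds back entry into mitosis and the firing of further origins.

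ATRIP, the recruiting subunit, had the lowest level of the 10 genes and the largest difference between the groups. Its FPKM was 1.82, 1.84 and 1.05 in LINC00888 libraries 1, 2 and 3, against 0.691, 0.307 and 0.276 in empty vector libraries 1, 2 and 3. Every LINC00888 library lay above every empty vector library, and library 3 was the lowest of its group. The means were 1.57 ± 0.45 FPKM with LINC00888 and 0.424 ± 0.231 FPKM with the empty vector (SD, n = 3 each), a ratio of 3.70. On the scale of log2(FPKM + 0.5), on which the whole table was fitted, the difference was 1.17 ± 0.23 (SE). At this level ATRIP stood at the 8.67th percentile of all genes in the table by mean FPKM.

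The gene model of ATRIP (ENSG00000164053.19_3) shared nearly all of its length with another. The deposited tables, whose genome build is not stated, place ATRIP on the plus strand of chromosome 3 from 48488114 to 48507115. They place AC134772.2 (ENSG00000282827.2_4), a gene listed as protein coding, on the same strand from 48488250 to 48509044. AC134772.2 thus began 136 bases after ATRIP, overlapped 99.3% of it (18866 of 19002 bases), and ended at the same base as TREX1, which encodes a DNA exonuclease of the cytosol and begins beyond the 94 bases that follow the end of ATRIP. In a RefSeq annotation of GRCh38.p14 this locus holds a noncoding read-through gene, ATRIP-TREX1, from 48446779 to 48467645, which starts 42 bases after ATRIP. The tables do not tie AC134772.2 to that gene. In release 29 of the GENCODE annotation, on GRCh38, 3 of the 10 ATRIP transcripts end at the end of TREX1. ATRIP-201 is one of them, with a span of 20913 bases there and 18918 in the deposited table.

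AC134772.2 moved in the direction opposite to ATRIP. Its FPKM was 0.648, 1.04 and 0.710 in the LINC00888 libraries, against 1.99, 1.89 and 1.72 in the empty vector libraries. The groups did not overlap. It fell to a mean of 0.799 ± 0.210 FPKM with LINC00888, against 1.87 ± 0.13 FPKM with the empty vector (SD, n = 3 each), by 0.88 ± 0.12 on the log2 scale (SE; limma adjusted p = 0.0114). That call held in all 14 other fits in which AC134772.2 was kept as a gene of its own, with adjusted p between 0.0097 and 0.0469. Its model covers nearly all of ATRIP, by which the set was chosen, so the call is not taken as separate evidence.

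The differences of ATRIP and AC134772.2 were of opposite sign and like size in FPKM. Between the group means ATRIP differed by 1.14 FPKM and AC134772.2 by -1.07 FPKM. Their sum was 2.46, 2.88 and 1.76 FPKM in the LINC00888 libraries, against 2.68, 2.20 and 2.00 FPKM in the empty vector libraries. The summed values of the groups overlapped, at 2.37 ± 0.56 and 2.29 ± 0.35 FPKM (SD, n = 3 each). Fitted as 1 gene in place of 2, a choice made after the values were seen, they had a log2 difference of 0.03 ± 0.17 (SE). ATRIP made up 73.7%, 63.9% and 59.7% of the pair's FPKM in the LINC00888 libraries, against 25.8%, 14.0% and 13.8% in the empty vector libraries. At this locus the share of ATRIP in the pair's FPKM lay apart between groups, while the pair's summed FPKM overlapped. The 2 gene models share 99.3% of the span of ATRIP. FPKM is scaled to the length of each model, so the sum is not a count of fragments. With 3 libraries in each group it cannot show that the total was unchanged. Whether the RNAs made there differed, or the assignment of shared fragments to the models, was not tested.

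**Figure D1:**
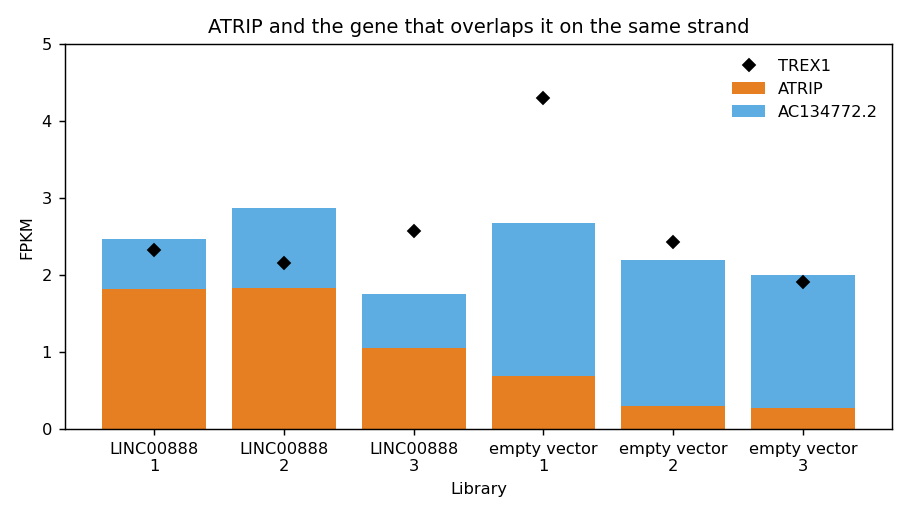
FPKM of ATRIP (orange) and AC134772.2 (blue), stacked, in each LINC00888 and empty vector library, with TREX1 as black diamonds. ATRIP fills 59.7% to 73.7% of the bar in LINC00888 libraries and 13.8% to 25.8% in empty vector libraries, while the bar heights overlap.

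TREX1 itself had 2.33, 2.16 and 2.57 FPKM in the LINC00888 libraries, against 4.30, 2.43 and 1.91 FPKM in the empty vector libraries. Empty vector library 1 was high and the groups overlapped (limma adjusted p = 0.671). That library also had the highest ATRIP value of its group. Of 535 pairs of tested genes that overlap on the same strand, 452 had neither member called and 76 had 1 member called. In 5 pairs, ATRIP with AC134772.2 among them, 1 member was called higher and the other lower. In 2 pairs both members were called in the same direction. Among all genes tested, 8.02% were called higher and 5.46% lower, and nothing is read from these counts of pairs.

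A single ATRIP transcript was listed, ATRIP-201, whose coding sequence has 791 codons in GENCODE 29. It had 1.84, 0.703 and 1.10 FPKM in the LINC00888 libraries, against 0.0309, 0.258 and 0.0455 FPKM in the empty vector libraries. It reached the minimum of 0.5 FPKM in 3 libraries through the LINC00888 group alone, so its difference is not separate evidence. In empty vector library 1 the gene stood at 0.691 FPKM while this transcript stood at 0.0309 FPKM. The gene was also well above the transcript in LINC00888 library 2 (1.84 against 0.703 FPKM) and empty vector library 3 (0.276 against 0.0455 FPKM). In the remaining libraries they were closer.

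The sequence just before the annotated RefSeq start of ATRIP is shown because ATRIP and AC134772.2 begin so close together that it precedes both, and that of ATR beside it because the proteins work as a pair while their transcripts differ in level. Each window holds the 250 bases upstream of the start, from RefSeq on GRCh38.p14. ATRIP is at chr3:48446487-48446736 on the plus strand and ATR at chr3:142578734-142578983 on the minus strand, both written 5′ to 3′ along the gene. Capitals mark the GC box GGGCGG and the CCAAT box, on either strand.
ATRIP: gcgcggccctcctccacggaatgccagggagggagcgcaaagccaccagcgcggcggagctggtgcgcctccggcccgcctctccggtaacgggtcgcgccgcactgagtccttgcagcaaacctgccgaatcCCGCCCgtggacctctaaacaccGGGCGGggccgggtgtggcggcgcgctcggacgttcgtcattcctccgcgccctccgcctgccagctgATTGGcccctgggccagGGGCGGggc
ATR: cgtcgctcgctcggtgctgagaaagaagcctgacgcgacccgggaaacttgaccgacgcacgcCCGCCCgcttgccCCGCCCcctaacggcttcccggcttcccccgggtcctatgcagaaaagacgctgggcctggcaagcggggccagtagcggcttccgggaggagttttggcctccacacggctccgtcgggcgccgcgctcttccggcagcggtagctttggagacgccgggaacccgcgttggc
The ATRIP window shown held 3 GC boxes and 1 CCAAT box, and the ATR window held 2 GC boxes. A further RefSeq window of ATRIP, at chr3:48446876-48447125 and not shown, held 1 CCAAT box as its only match. Among 35116 RefSeq windows of this length, 42.6% held GGGCGG and 32% held CCAAT on either strand, so these matches are common. GC content was 73.6% before ATRIP and 69.6% before ATR, against a median of 58.0% over all windows. Windows were found for 7 of the 10 genes (ATRIP, ATR, RPA1, TOPBP1, CHEK1, RAD17 and RAD9A). None of the 7 held the motifs TTTGGCGC or TTTCCCGC (E2F) or CCGGAAGT (ETS) on either strand, which 0.550%, 1.39% and 3.42% of all windows did. The matches, and their absence, describe these letters in these windows and nothing about binding.

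ATR (chromosome 3, 142168077 to 142297668), the kinase, differed little between the groups. It had 4.13, 3.87 and 4.03 FPKM in the LINC00888 libraries, against 4.58, 3.73 and 4.38 FPKM in the empty vector libraries. The groups overlapped, and the log2 difference was -0.07 ± 0.08 (SE). The ratio of ATRIP to ATR was 0.440, 0.475 and 0.261 with LINC00888, against 0.151, 0.0823 and 0.0630 with the empty vector. With AC134772.2 added to ATRIP the ratio was 0.597, 0.744 and 0.437 with LINC00888, against 0.584, 0.590 and 0.456 with the empty vector, and the groups overlapped. The full-length transcript ATR-201, with 2644 codons in GENCODE 29, made up 90.6% ± 0.6 of the listed ATR transcripts with LINC00888 and 90.5% ± 3.4 with the empty vector (SD, n = 3 each).

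The RPA subunits, which coat single-stranded DNA in replication and repair as well as in signalling, lay with RAD17 and TOPBP1 in the upper part of the set. RPA1, the large subunit (chromosome 17), had 39.6, 40.1 and 35.6 FPKM in the LINC00888 libraries, against 40.7, 41.6 and 35.6 FPKM in the empty vector libraries. RPA2, the subunit that checkpoint kinases phosphorylate (chromosome 1), had 27.5, 28.1 and 27.6 FPKM with LINC00888, against 25.8, 28.9 and 27.5 FPKM with the empty vector. RPA3, the small subunit (chromosome 7), had 14.7, 15.8 and 17.3 FPKM with LINC00888, against 14.7, 16.7 and 16.1 FPKM with the empty vector. All 3 overlapped between groups, with log2 differences of -0.03 ± 0.08, 0.02 ± 0.05 and 0.01 ± 0.07 (SE).

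The proteins bind in equal numbers, while their gene FPKM, which depends on the gene model, was unequal in the same order in every library. Sums of their listed transcripts kept that order but lay at other levels. For RPA1, RPA2 and RPA3 those sums had means of 48.6, 32.9 and 25.0 FPKM with LINC00888. With the empty vector they were 49.7, 31.9 and 24.9 FPKM. RPA1, RPA2 and RPA3 made up 46.8% ± 2.2, 33.8% ± 0.4 and 19.4% ± 1.8 of their summed FPKM with LINC00888 and 47.6% ± 2.6, 33.2% ± 1.5 and 19.2% ± 1.1 with the empty vector (SD, n = 3 each). One transcript dominated each: RPA1-201, RPA2-203 and RPA3-201 held 98.9%, 92.4% and 97.7% of the listed transcript FPKM with LINC00888 and 98.8%, 96.5% and 96.9% with the empty vector.

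RAD17, the subunit that opens and loads the clamp (chromosome 5), had 17.01, 15.7 and 16.0 FPKM in the LINC00888 libraries, against 16.4, 16.3 and 15.7 FPKM in the empty vector libraries. The groups overlapped, with a log2 difference of 0.01 ± 0.05 (SE), the smallest error of the set. RAD9A, the clamp subunit whose tail binds TOPBP1 (chromosome 11), had 6.15, 6.001 and 5.06 FPKM with LINC00888, against 5.53, 4.97 and 4.99 FPKM with the empty vector. HUS1, another clamp subunit (chromosome 7), had 5.46, 5.97 and 6.31 FPKM with LINC00888, against 4.62, 6.13 and 5.13 FPKM with the empty vector. In both of these the LINC00888 mean was higher, by ratios of 1.11 and 1.12, but the libraries overlapped (log2 differences of 0.14 ± 0.09 and 0.15 ± 0.11, SE).

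RAD1, the remaining clamp subunit and not among the 10, had 6.40, 6.55 and 6.004 FPKM in the LINC00888 libraries, against 5.51, 5.73 and 5.50 FPKM in the empty vector libraries. Its groups did not overlap, as was so in 38.3% of all genes tested, and it did not pass the threshold (log2 difference 0.16 ± 0.05 SE, limma adjusted p = 0.0917). Unlike the RPA subunits, the 3 clamp subunits were near equal in gene FPKM, which depends on the gene model. RAD9A to RAD1 was 0.906 ± 0.060 with LINC00888 and 0.926 ± 0.069 with the empty vector, and HUS1 to RAD1 was 0.939 ± 0.102 and 0.947 ± 0.116 (SD, n = 3 each).

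TOPBP1, the activator of ATR (chromosome 3, 133317019 to 133380737), had 15.0, 15.1 and 14.6 FPKM in the LINC00888 libraries, against 16.8, 15.0 and 14.6 FPKM in the empty vector libraries. CHEK1, the kinase that carries the signal on (chromosome 11), had 5.25, 5.37 and 5.49 FPKM with LINC00888, against 5.24, 5.27 and 7.57 FPKM with the empty vector. Empty vector library 3 alone set CHEK1 apart, and the other 5 libraries lay within 5.24 to 5.49 FPKM. The log2 differences were -0.05 ± 0.06 for TOPBP1 and -0.13 ± 0.14 for CHEK1 (SE).

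**Figure D2:**
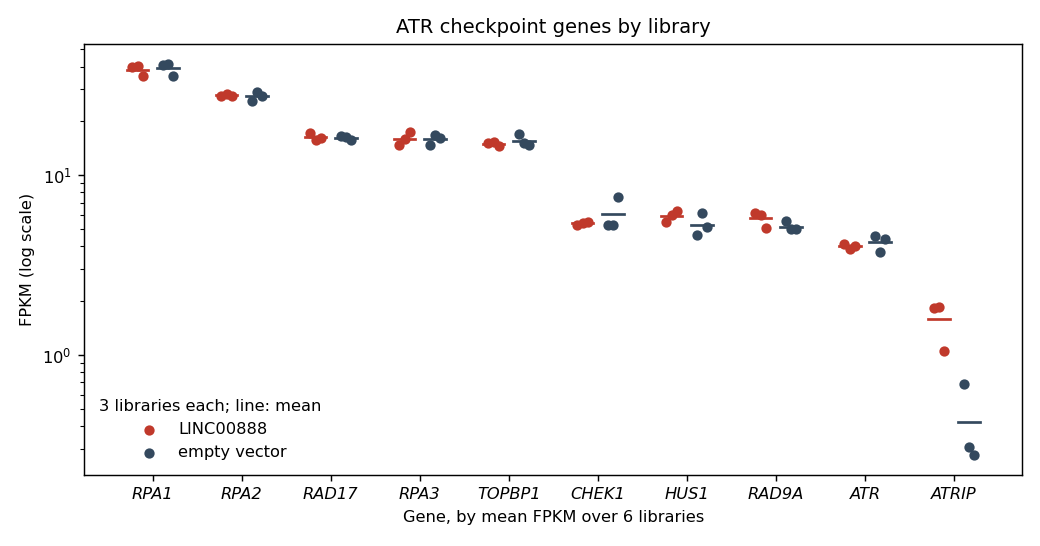
FPKM, on a log axis, of the 10 genes in the 3 LINC00888 libraries (red, left) and the 3 empty vector libraries (dark, right), with lines at the group means. The groups lie apart in ATRIP (1.05 to 1.84 against 0.276 to 0.691 FPKM) and overlap in the other 9 genes.

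Over the set, 1 of the 10 genes, ATRIP, passed an adjusted p under 0.05 in the fit over all genes, beside 13.5% of the 11726 genes tested (8.02% higher and 5.46% lower with LINC00888). It was also the 1 gene of the 10 whose groups did not overlap, beside 38.3% of all genes tested (23.5% higher and 14.8% lower). ATRIP no longer passed without LINC00888 library 1 or 2 or empty vector library 2 or 3, or when summed with AC134772.2. Since ATRIP was the reason for the choice of the set, nothing is read from these counts. Over all genes, 941 were called higher and 640 lower, against 760 and 814 after scaling by median ratios and 688 and 648 after quantile normalization. In the other 9 the ratio of means lay between 0.891 (CHEK1) and 1.12 (HUS1), 5 estimates were above 0 and 4 below, and the median log2 difference was 0.01, beside 0.03 over all genes tested. None of the 9 estimates was more than 2 SE from 0. Of the 9, CHEK1 shares 80 bases with STT3A on the same strand. RPA1, RPA3, RAD17 and RAD9A overlap genes on the opposite strand, and whether strand was used in counting is not stated. The median log2 difference of all 10 was also 0.01.

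**Figure D3:**
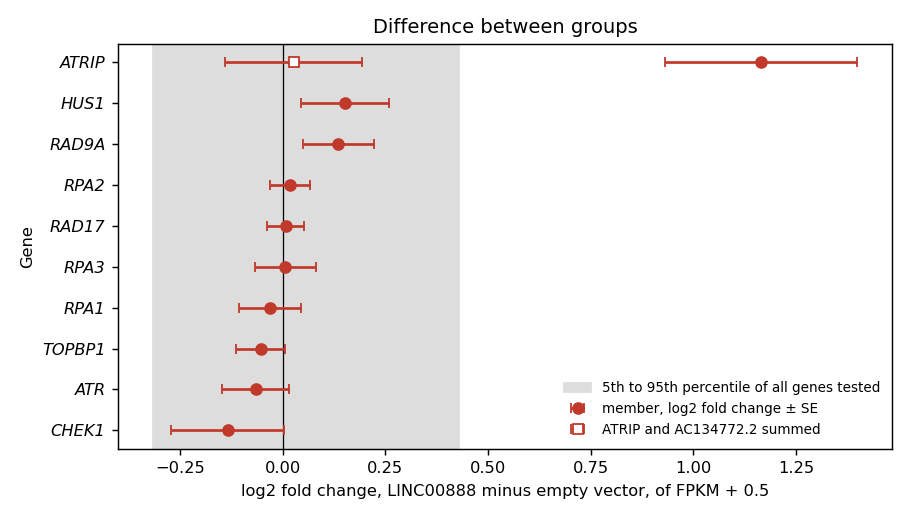
Log2 difference, LINC00888 minus empty vector, with its SE, for the 10 genes over the range from the 5th to the 95th percentile of all genes tested (grey, -0.31 to 0.43). The 9 other genes lie inside that range between -0.13 and 0.15, ATRIP lies at 1.17, and ATRIP summed with AC134772.2 (open square) at 0.03.

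By gene FPKM, which depends on the gene model, the order of the levels was much alike in both groups. With LINC00888 it ran RPA1, RPA2, RAD17, RPA3, TOPBP1, HUS1, RAD9A, CHEK1, ATR and ATRIP. With the empty vector CHEK1 stood before HUS1 and RAD9A, with its highest value in library 3. In both groups neighbours from RAD17 to TOPBP1 overlapped in their libraries, as did HUS1, RAD9A and CHEK1, while RPA1, RPA2, ATR and ATRIP were each separate from the next gene. By mean FPKM over the 6 libraries, RPA1 stood at the 92.6th percentile of all genes and ATR at the 37.9th.

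Transcript estimates of RAD17 and CHEK1 moved from library to library far more than their genes. RAD17 had 9 listed transcripts. RAD17-204 had 12.7, 0.960 and 3.86 FPKM in the LINC00888 libraries, against 1.68, 1.16 and 2.84 FPKM in the empty vector libraries. RAD17-206, whose coding sequence is shorter in GENCODE 29 (505 codons, against 670 for RAD17-204), had 3.99, 3.84 and 7.41 FPKM with LINC00888, against 2.06, 2.87 and 11.8 FPKM with the empty vector. Each was thus high in 1 or 2 libraries of a group and low in the others. The sum of the 9 stayed at 24.0, 21.3 and 22.6 FPKM with LINC00888, against 22.7, 22.5 and 22.05 FPKM with the empty vector.

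CHEK1 had 10 listed transcripts. They summed to 16.9 ± 0.4 FPKM with LINC00888 and 17.3 ± 2.3 FPKM with the empty vector (SD, n = 3 each). The gene itself had means of 5.37 and 6.03 FPKM, so its level beside other genes depends on which value is used. CHEK1-218, with 382 codons, had 1.87, 6.86 and 1.90 FPKM in the LINC00888 libraries, against 1.70, 0.919 and 2.10 FPKM in the empty vector libraries, a single high library. CHEK1-202 had 1.30, 0.312 and 0.953 FPKM with LINC00888, against 2.13, 3.61 and 1.81 FPKM with the empty vector, and its groups did not overlap. The 4 transcripts whose coding sequence has 476 codons summed to 8.92, 7.80 and 8.52 FPKM with LINC00888, against 10.5, 8.43 and 9.90 FPKM with the empty vector, and those sums overlapped. RAD9A-201, the main transcript of RAD9A, had 8.78, 7.55 and 2.89 FPKM with LINC00888, against 3.57, 6.35 and 6.75 FPKM with the empty vector, while the gene kept within 4.97 to 6.15 FPKM.

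Of the 35 transcripts, 33 reached 0.5 FPKM in at least 3 libraries. Of these, 0 passed the adjusted threshold in limma, beside 0.379% of the 26941 transcripts tested (0.167% higher and 0.212% lower). At an unadjusted p under 0.05 in limma there were 2 of the 33, beside 2989 of the 26941. In 2 of the 33, ATRIP-201 (higher) and CHEK1-202 (lower), the groups did not overlap, beside 19.9% of all transcripts tested (10.7% higher and 9.19% lower). The median coefficient of variation within a group was 38.1% for the 33 transcripts and 6.84% for the 10 genes. Over all transcripts tested it was 23.1% and over all genes tested 6.14%.

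**Figure D4:**
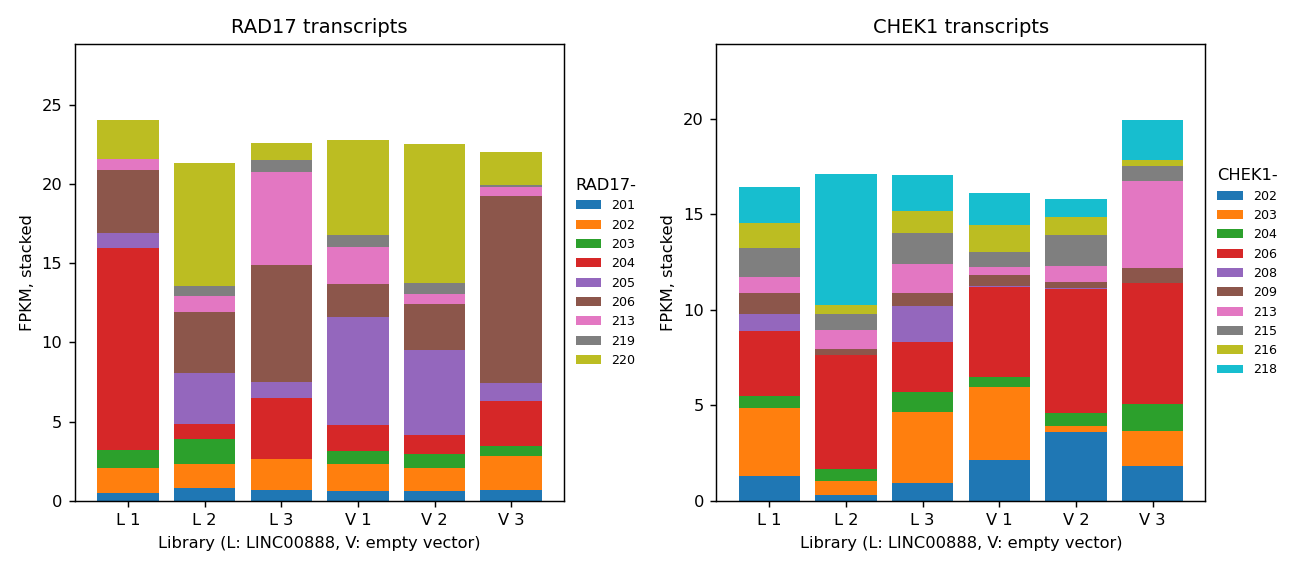
FPKM of the listed transcripts of RAD17 (left) and CHEK1 (right), stacked for LINC00888 libraries 1 to 3 (L) and empty vector libraries 1 to 3 (V). The RAD17 bars reach 21.3 to 24.0 FPKM in all 6 libraries, while the colours within them change from library to library.

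The genes around ATRIP were taken by position, 14 of them with any part within 250 kb. Of these 1, AC134772.2, passed the adjusted threshold, beside 13.5% of all genes tested, with PLXNB1 also at an unadjusted p under 0.05, and the median log2 difference of the 14 was -0.01. PLXNB1, a semaphorin receptor on the opposite strand, had 3.05 ± 0.28 FPKM with LINC00888 and 2.57 ± 0.16 FPKM with the empty vector (SD, n = 3 each; limma adjusted p = 0.14). SHISA5, which lies just past TREX1 on the opposite strand, varied within both groups, with 13.2, 22.4 and 15.9 FPKM in the LINC00888 libraries, against 17.2, 21.4 and 11.7 FPKM in the empty vector libraries. The ribosome-associated factor TMA7 (-0.11 ± 0.05), CCDC51 (-0.03 ± 0.05), the respiratory chain subunit UQCRC1 (-0.05 ± 0.03), the collagen COL7A1 (0.01 ± 0.09), the glycolytic regulator PFKFB4 (0.10 ± 0.08), the kinase IP6K2 (0.09 ± 0.06), NCKIPSD (0.16 ± 0.10), SLC26A6 (-0.13 ± 0.08), NME6 (-0.10 ± 0.09) and ZNF589 (0.33 ± 0.34) are given by log2 difference and SE.

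**Figure D5:**
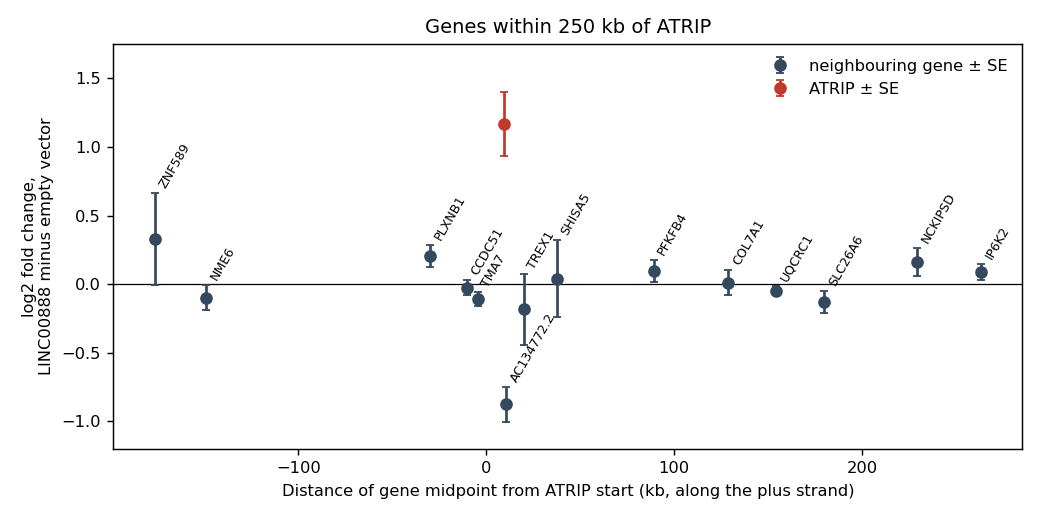
Log2 difference, LINC00888 minus empty vector, with its SE, of ATRIP (red) and of the 14 genes with any part within 250 kb (dark), by the distance of the gene's midpoint from the start of ATRIP. ATRIP at 1.17 and AC134772.2 at -0.88 stand apart in opposite directions, and the others lie between -0.18 and 0.33.

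Across all genes tested, the 5 whose log2 values followed ATRIP most closely over the 6 libraries were AC079594.2, GBA2, FA2H, FKBP9 and ZFYVE21, with Pearson's r between 0.995 and 0.998. These values rest on 6 libraries in 2 groups and were picked as the highest, so nothing is read from them. Of the other 11725 genes, 277 had r above 0.95. Within the set, RAD9A came nearest to ATRIP (r = 0.86) and CHEK1 was farthest (r = -0.53), and ATR had r = -0.17.

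Other genes of ATR signalling were taken from a list of 45, of which 43 were tested. Among these, 3 rose and 2 fell, beside 13.5% of all genes tested that passed, and the median log2 difference was 0.04. At an unadjusted p under 0.05 in limma there were 16. How many of all genes tested reached that unadjusted p was not counted, so nothing is read from such counts of listed genes. The nuclease MRE11 rose to 7.63 ± 0.38 FPKM with LINC00888, against 6.22 ± 0.16 FPKM with the empty vector (SD, n = 3 each; limma adjusted p = 0.0256). The repair factor BRCA1 rose to 4.91 ± 0.08 FPKM, against 4.03 ± 0.20 FPKM (adjusted p = 0.032), and the helicase WRN to 6.56 ± 0.24 FPKM, against 5.50 ± 0.18 FPKM (adjusted p = 0.036).

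CDK1, the mitotic kinase that the checkpoint restrains, fell to 73.3 ± 1.9 FPKM with LINC00888, against 97.7 ± 3.1 FPKM with the empty vector (SD, n = 3 each; limma adjusted p = 0.0038). CLSPN, the mediator that presents CHEK1 to ATR, fell to 7.01 ± 0.22 FPKM, against 8.63 ± 0.51 FPKM (adjusted p = 0.0287). CDK1 passed in all 16 other fits. The calls of MRE11 and CLSPN were lost without each of the 6 libraries in turn (adjusted p up to 0.0766 and 0.087), as was that of WRN (up to 0.11), and that of BRCA1 was lost without each library but empty vector library 1 (up to 0.0995). Quantile normalization also ended the calls of BRCA1 (0.0583) and WRN (0.0501). With the replicate number as a block in the fit, the calls of MRE11, CLSPN, WRN and BRCA1 were all lost.

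Of the 7 cell cycle targets on the list, CDK1 passed, beside 13.5% of all genes tested. All 7 estimates were below 0, beside 5029 of the 11726 genes tested. Their median log2 difference was -0.21, beside 0.03 over all genes tested. WEE1, the kinase that holds CDK1 inactive, had 3.65, 3.74 and 3.54 FPKM in the LINC00888 libraries, against 3.99, 6.15 and 5.02 FPKM in the empty vector libraries (adjusted p = 0.109). RRM2, a subunit of ribonucleotide reductase, had 20.3, 27.5 and 27.5 FPKM with LINC00888, against 11.2, 21.8 and 10.8 FPKM with the empty vector (adjusted p = 0.127).

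CLSPN was the 1 of the 5 activator and mediator genes on the list that passed, and 0 of the 6 tested clamp and loader genes did. The small RFC subunits that work with RAD17 had log2 differences of -0.08 ± 0.11 (RFC2), 0.01 ± 0.03 (RFC3), 0.00 ± 0.08 (RFC4) and 0.06 ± 0.05 (RFC5), with adjusted p between 0.467 and 0.999. ETAA1, an activator of ATR that works apart from TOPBP1, had 8.60 ± 0.46 FPKM with LINC00888 and 8.92 ± 0.35 FPKM with the empty vector (adjusted p = 0.601). The fork protection pair TIMELESS (0.04 ± 0.06) and TIPIN (-0.04 ± 0.12) did not pass either (adjusted p = 0.667 and 0.847). ATM, the kinase of the parallel pathway for broken DNA, had 1.66, 2.05 and 1.91 FPKM with LINC00888, against 1.91, 0.917 and 1.84 FPKM with the empty vector (adjusted p = 0.502). Its target CHEK2 had 12.3 ± 0.7 FPKM with LINC00888 and 11.97 ± 0.29 FPKM with the empty vector (adjusted p = 0.643).

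Of 26 replication genes, with which RPA and CHEK1 are known to be expressed in S phase, 1 passed, beside 13.5% of all genes tested. CDC6, which loads the replicative helicase, fell to 16.8 ± 0.5 FPKM with LINC00888, against 19.3 ± 0.1 FPKM with the empty vector (SD, n = 3 each; adjusted p = 0.0237). That call was kept when LINC00888 library 3 was left out and lost when any other library was (adjusted p up to 0.0803). It was also lost with the replicate number as a block in the fit. The list's median log2 difference was -0.03.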

How the data were processed

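Values are FPKM for genes and for transcripts, which the authors deposited with 1 column per library, per the file headers. The submitters' processing notes list StringTie, HISAT2, cutadapt and FastQC, with no version for any. They also list the mouse build GRCm38, although the features are human, so the build of the deposited positions is taken as not stated. In the files, the higher of the group means was never under 0.5 FPKM. Low values did not fall on steps worth 1 fragment, so depth could not be recovered. An emptied transcript line was not used.

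A feature was kept if 3 or more of the 6 libraries had an FPKM of 0.5 or more. Values were taken as log2(FPKM + 0.5), which understates differences of low genes, without further scaling. LINC00888 was compared with empty vector in limma 3.58.1 (R 4.3.3; eBayes with trend and robust, two-sided, Benjamini-Hochberg adjustment over the whole table, threshold 0.05), after a test on simulated data. Folds are ratios of mean FPKM. Transcript shares are of the gene's listed transcripts.

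The genes, lists and tests were chosen with earlier results of these data known. Named genes were all 10 members, pathway and replication genes past the threshold, a fixed set of close partners, genes within 250 kb of ATRIP, and the 5 most like ATRIP. Further genes named (RRM2 and WEE1) were chosen after their values were seen. Windows before gene starts came from RefSeq (GRCh38.p14), transcript lengths from GENCODE 29. The alternatives tried were a replicate block, quantile normalization, scaling by median ratios, pseudocounts of 0.1 and 1, a filter at 1 FPKM, no filter, plain eBayes, each library left out, and sums at the ATRIP locus.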

Additional observations from a re-analysis of the deposited data

How the results depend on the processing

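Leaving out 1 library in turn left 536 to 815 genes past the threshold, against 1581 with all 6, and 22 to 45 transcripts, against 102. It left 1 to 3 pathway genes called, against 5, with CDK1 among them each time, BRCA1 without empty vector library 1, and otherwise genes outside the 5. It left 0 to 1 of the replication genes (3 to 6 at an unadjusted p under 0.05 in limma) and 0 to 1 of the 10 checkpoint genes, with ATRIP lost without LINC00888 library 1 or 2 or empty vector library 2 or 3. Quantile normalization left 3 pathway genes. No pairing of the libraries by replicate number was evident: the correlation of deviations from the group means was 0.04, 0.02 and -0.03 for numbers 1, 2 and 3. Whether the libraries were made in pairs cannot be told from these values. With the replicate block 429 genes, 0 transcripts (2362 at an unadjusted p under 0.05), 1 pathway gene (CDK1) and 0 replication genes (4 at an unadjusted p under 0.05) passed. The cause of these losses was not tested, beyond the fewer libraries or degrees of freedom of those fits.

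With ATRIP and AC134772.2 summed, or both with TREX1, 0 of the 10 genes passed adjusted or unadjusted, and 0 of the neighbours that remained (1 at an unadjusted p under 0.05). The log2 difference at ATRIP was then 0.03 and -0.08, against 1.17 for ATRIP alone. Pseudocounts of 0.1 and 1 gave 1.71 and 0.85 for ATRIP alone. Median ratio scaling and quantile normalization gave 1.15 and 1.05. Among all calls, lower ones outnumbered higher ones under median ratio scaling (760 higher, 814 lower), while under quantile normalization the higher ones remained more numerous (688 and 648), as without scaling (941 and 640). Over all alternatives, 157 log2 differences of the 10 genes moved by less than the spread within groups. The 3 that moved by more were those of ATRIP named here with the pseudocount of 0.1 and the 2 sums. Many of the 157 could not move. The changes of filter, plain eBayes and the replicate block left every estimate as it was, and the 2 sums could not change genes other than ATRIP. Taken over the gene-level FPKM, 48 of 70 mean transcript shares moved by more than their spread. ATRIP lies near the lower end of the listed values, where FPKM is least precise.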
